A study of Homo sapiens with 28 samples.

Results

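The 10 genes described here code for chaperones of the endoplasmic reticulum (ER) and for parts of the unfolded protein response (UPR), and were chosen by symbol: HSPA5, HSP90B1, CALR, PDIA4, DNAJB9, DNAJC3, SDF2L1, HERPUD1, XBP1 and ERN1. All 10 were among the 19662 gene symbols of each RNA-Seq table and had a value in each of the 16 libraries. PC3 cells, an androgen receptor-negative prostate cancer (PCa) cell line with features of small cell neuroendocrine carcinoma, had been given control siRNA (siCtrl) or siRNA against the transcription factor ONECUT2 (siOC2). LNCaP cells, a cell line of prostate adenocarcinoma, carried an empty vector (EV) or a vector for Flag-tagged ONECUT2 (OC2). Each of these arms was sampled in normoxia and in hypoxia (0.2% oxygen), with 2 libraries per group. In the siOC2 groups, replicate 1 was made with siRNA1 and replicate 2 with siRNA2, so that each siRNA had a single library per oxygen level. Each condition was sampled in 1 established line only, the time in hypoxia is not given in the sources used here, and the labels do not say whether libraries of a group came from separate cultures, so P-values measure the spread between libraries.

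Proteins that enter the ER are folded there by chaperones and oxidoreductases, and a load of unfolded protein is sensed by the membrane proteins IRE1, PERK and ATF6. ATF6 and the spliced form of XBP1, which IRE1 produces, are transcription factors that raise the genes of chaperones and of ER-associated degradation (ERAD), whereas PERK slows translation and raises ATF4. Oxygen is used in the formation of disulfide bonds in the ER, and luminal prostate epithelium is a secretory tissue. Among the 10 genes, HSPA5 (BiP), HSP90B1 (GRP94) and CALR (calreticulin) are abundant chaperones of the ER lumen, and PDIA4 is a protein disulfide isomerase. DNAJB9, DNAJC3 and SDF2L1 are cofactors of BiP or work beside it, HERPUD1 is a membrane protein of ERAD, and ERN1 codes for IRE1 itself. RNA-Seq values of XBP1 count all its transcripts, spliced by IRE1 or not.

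The UPR factors bind a known sequence, the ER stress response element (ERSE), and a shorter form of it, ERSE-II, so promoter stretches that held a match are shown. ERSE was searched as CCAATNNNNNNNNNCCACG and ERSE-II as ATTGGNCCACG, on both strands, in the 250 bases before the RefSeq start. Of 35116 such windows, 0.074% held an ERSE and 0.0513% an ERSE-II. ERSE was found in 4 of the 10 genes (HSPA5, HSP90B1, CALR and XBP1) and ERSE-II in 2 (SDF2L1 and HERPUD1). Counted as windows, these are 4 and 2 of the 12 windows of the 10 genes. The 10 genes were chosen as ER and UPR genes and the elements are known from the UPR, so these shares carry no test. The stretches below were located in GRCh37 and stop before the annotated gene, and capitals mark the ERSE or, in SDF2L1 and HERPUD1, the ERSE-II. The minus-strand genes HSPA5 (chr9:128003662-128003872) and XBP1 (chr22:29196586-29196807) are printed on their own strand, and CALR (chr19:13049173-13049391), SDF2L1 (chr22:21996341-21996590) and HERPUD1 (chr16:56965804-56966053) lie on the plus strand.
HSPA5: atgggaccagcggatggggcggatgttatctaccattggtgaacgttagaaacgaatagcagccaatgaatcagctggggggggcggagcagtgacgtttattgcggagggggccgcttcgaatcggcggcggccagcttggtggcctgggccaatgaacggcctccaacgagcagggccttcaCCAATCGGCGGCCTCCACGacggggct
CALR: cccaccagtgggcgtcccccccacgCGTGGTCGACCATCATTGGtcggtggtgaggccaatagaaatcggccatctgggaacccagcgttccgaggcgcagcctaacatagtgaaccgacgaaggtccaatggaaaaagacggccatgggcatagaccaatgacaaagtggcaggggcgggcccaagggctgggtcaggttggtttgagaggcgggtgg
XBP1: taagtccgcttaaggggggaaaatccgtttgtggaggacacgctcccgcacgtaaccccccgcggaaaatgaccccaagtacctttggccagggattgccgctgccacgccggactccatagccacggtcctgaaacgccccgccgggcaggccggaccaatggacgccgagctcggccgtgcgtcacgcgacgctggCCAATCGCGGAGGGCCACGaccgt
SDF2L1: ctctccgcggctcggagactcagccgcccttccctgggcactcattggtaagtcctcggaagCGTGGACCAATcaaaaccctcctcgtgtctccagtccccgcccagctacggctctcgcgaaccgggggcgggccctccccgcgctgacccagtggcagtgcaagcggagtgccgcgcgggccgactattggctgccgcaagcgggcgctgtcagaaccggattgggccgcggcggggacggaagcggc
HERPUD1: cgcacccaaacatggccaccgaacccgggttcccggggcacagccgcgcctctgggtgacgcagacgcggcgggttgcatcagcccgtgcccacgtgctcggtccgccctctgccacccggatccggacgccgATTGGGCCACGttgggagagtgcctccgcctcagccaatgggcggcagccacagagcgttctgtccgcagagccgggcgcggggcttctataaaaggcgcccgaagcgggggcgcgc

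In these stretches the ERSE lay 66 to 48 bases before the start of HSPA5, 225 to 207 before that of CALR and 52 to 34 before that of XBP1. HSP90B1 held 2, at 194 to 176 and 89 to 71 bases, in a window that overlaps an annotated transcript and is not printed. The ERSE-II lay 188 to 178 bases before the start of SDF2L1 and 117 to 107 before that of HERPUD1. The core TGACGTG of the UPR element, found in 1.68% of all windows, was in 0 of the 10 genes. ACGTG is the core of the element bound by hypoxia-inducible factors (HIF) and also part of TGACGTG. It was in 6 of the 10 genes, or 6 of their 12 windows, and in 18.5% of all windows. One of the ACGTG matches of HERPUD1, at 110 to 106 bases on the minus strand, overlapped its ERSE-II. These are matches of letters in short windows and not measured binding sites.

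Levels are given as RPKM, read numbers scaled to transcript length and library size, in which genes of a library can be compared. CALR and HSP90B1 had the highest and second highest mean of the 10 genes in all 4 groups of both lines, and DNAJC3 ranked 8 in every group. CALR ranged from 816 to 1417 RPKM over the 8 PC3 libraries and from 1395 to 2666 over the 8 LNCaP libraries. HSP90B1 ranged from 293 to 532 RPKM in PC3 and from 1074 to 1523 in LNCaP. The lowest positions belonged to SDF2L1 and ERN1, with medians of 3.01 and 2.397 RPKM in PC3 and of 7.22 and 8.28 in LNCaP. In PC3 siCtrl normoxia the order went on from HSP90B1 with HERPUD1 and PDIA4, whose libraries lay apart from those of their neighbours. HSPA5, XBP1 and DNAJB9 followed, and there the libraries of each gene overlapped those of the next. In LNCaP EV normoxia PDIA4 overlapped XBP1 and SDF2L1 overlapped ERN1.

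HSPA5, the main chaperone of the ER lumen, held different ranks in the 2 tables. It had a median of 30.4 RPKM over the PC3 libraries, where it ranked between 4 and 6, and of 267 RPKM in LNCaP, where it ranked 3 in each group. HERPUD1 ranked 3 in each PC3 group and 4 in each LNCaP group, with medians of 89.8 and 188 RPKM. The sum of all RPKM was 401332 to 513810 in PC3 libraries and 813232 to 961906 in LNCaP libraries, so levels of the 2 tables are set side by side as deposited and were not tested against each other.

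**Figure D1:**
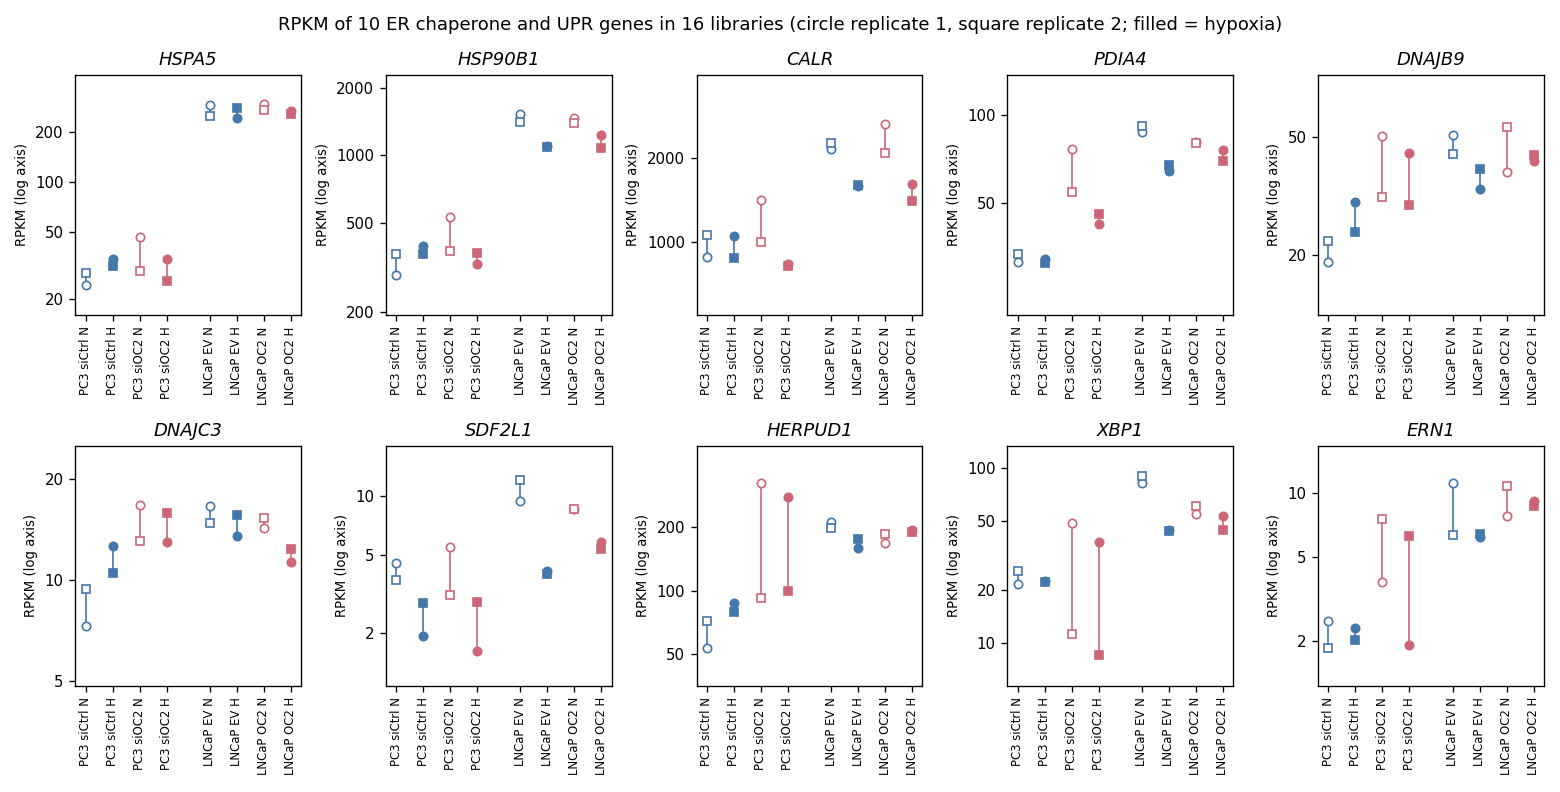
RPKM of each of the 10 genes (log axis) in the 16 libraries, by group; circles are replicate 1 (siRNA1 in siOC2) and squares replicate 2 (siRNA2 in siOC2), filled in hypoxia, blue for siCtrl or EV and red for siOC2 or OC2. HSPA5 lies between 24.2 and 46.8 RPKM in PC3 and between 241 and 291 in LNCaP, and the siOC2 libraries of HERPUD1, XBP1 and ERN1 stand far apart from each other.

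Relative depth, estimated from the steps between low RPKM, was 0.348 to 0.418 in 3 PC3 libraries (siOC2 hypoxia replicate 1, siCtrl hypoxia replicate 2 and siCtrl normoxia replicate 1), 0.877 to 1.15 in the other PC3 libraries and 0.548 to 1 in LNCaP. ONECUT2 was at 1.77 and 1.16 RPKM in siCtrl normoxia and at 0.276 and 0.204 in siOC2 normoxia, and at 0.648 and 0.550 in siCtrl hypoxia and 0.126 and 0.214 in siOC2 hypoxia. It was at 2.89 to 11.5 RPKM in the EV libraries and has no value in the OC2 libraries, so overexpression could not be checked by its own gene. Of 10 HIF target genes, 9 were called higher in hypoxia in each PC3 arm, and all 9 that could be tested were called in each LNCaP arm. KLK3, a marker of androgen-responsive prostate cells, was listed at 0 in all PC3 libraries and at 1842 to 3997 RPKM in LNCaP. Of 5 marker genes of leukocytes, endothelium and fibroblasts, PTPRC, CDH5, COL1A2 and DCN were at 0.158 RPKM or less in every library, whereas the collagen gene COL1A1 ranged from 2.03 to 4.74 RPKM in PC3 and from 7.57 to 25.9 in LNCaP. HSPA8, a cytosolic chaperone, was listed at 0 in 1 PC3 and 2 LNCaP libraries, and none of the 10 genes was listed at 0 in any library.

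The first comparison asked whether hypoxia alters these genes in LNCaP cells that carry the empty vector. SDF2L1 fell, and all 10 genes had a negative log2 fold change. SDF2L1 was at 9.44 and 12.1 RPKM in normoxia and at 4.16 and 3.99 in hypoxia, so that both hypoxic libraries lay far under both normoxic ones. Its log2 fold change was -1.37 (SE 0.15, adjusted p = 0.000476). It was the 1 gene of the 10 that was called, that is, more than 2-fold different with an unadjusted P below 0.05 in limma, where 7.95% of the 12284 genes tested were called and 2.34% were called lower. In RNA from bulk cells, fewer cells of a kind and less RNA per cell cannot be told apart. The median log2 fold change of the 10 genes was -0.42, beside 0.02 for all genes tested.

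Cell type markers moved in the same contrast. Of 4 luminal androgen-receptor markers KLK2 was called higher (1.16, adjusted p = 0.00027) and KLK3 had 0.93 (adjusted p = 0.000377), and their summed level was 2830 to 2833 RPKM in EV normoxia and 5233 to 5586 in EV hypoxia. Of 3 epithelial markers KRT8 was called higher (1.23, adjusted p = 0.000151), and their sum went from 473.9 to 512.5 RPKM in normoxia to 786 to 820 in hypoxia. COL1A1, the 1 gene of the other cell types that could be tested, was called higher in EV (1.11) and in OC2 (1.22), and the sum of the 5 genes was 7.58 to 7.88 RPKM in EV normoxia and 15.8 to 17.6 in EV hypoxia. The part of these markers in the lower values of the 10 genes was not tested.

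XBP1 came next in size. It was at 82.1 and 89.3 RPKM in EV normoxia and at 44.02 and 43.8 in EV hypoxia, without overlap. Its log2 fold change of -0.96 (SE 0.11, adjusted p = 0.000771) stayed just under the fold limit, and without EV normoxia replicate 1 it was -1.02 and XBP1 was called too. CALR, HSP90B1 and PDIA4 were also lower at an adjusted p under 0.05, a limit that 32.3% of all genes tested passed. CALR was at 2159 and 2271 RPKM in normoxia and at 1592 and 1606 in hypoxia (log2 fold change -0.47, SE 0.13, adjusted p = 0.0278). HSP90B1 was at 1523 and 1408 RPKM in normoxia and at 1104 and 1094 in hypoxia (log2 fold change -0.41, SE 0.10, adjusted p = 0.0166). PDIA4 was at 87.4 and 91.2 RPKM in normoxia and at 64.2 and 67.1 in hypoxia (log2 fold change -0.44, SE 0.09, adjusted p = 0.00791). The normoxic and hypoxic libraries of these 3 genes did not overlap, and their hypoxic replicates lay closer together than the groups.

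HSPA5 was at 289 and 246 RPKM in EV normoxia and at 241 and 278 in EV hypoxia, overlapping, with a log2 fold change of -0.04 and a 95% interval from -0.30 to 0.22. Whether its response differed from that of the other chaperones was not tested. HERPUD1 (212 and 198 against 159 and 176 RPKM, adjusted p = 0.051) and DNAJB9 (50.8 and 43.7 against 33.3 and 38.9 RPKM, adjusted p = 0.109) were lower at an unadjusted P under 0.05 only, which makes 7 of the 10 genes at that limit, beside 44.4% of all genes. DNAJC3 and ERN1 overlapped between the oxygen levels. Also 7 of the 10 genes were lower without overlap, where 32.4% of all genes were. Upper-quartile scaling gave a median of -0.45 and left all 10 values negative.

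In LNCaP cells with ONECUT2, none of the 10 genes was called in hypoxia by limma (6.84% of all genes), and 4 had an unadjusted P under 0.05 (40.6% of all genes). CALR was at 2666 and 2087 RPKM in OC2 normoxia and at 1611 and 1395 in OC2 hypoxia (log2 fold change -0.65, SE 0.13, adjusted p = 0.00969). SDF2L1 was at 8.63 and 8.60 RPKM in OC2 normoxia and at 5.85 and 5.38 in OC2 hypoxia (log2 fold change -0.61, SE 0.15, adjusted p = 0.0182). Both were lower in each hypoxic library, and they were the only members at an adjusted p under 0.05, which 26.9% of all genes had. XBP1, at 54.6 and 60.9 RPKM in normoxia and 52.8 and 44.4 in hypoxia, had a log2 fold change of -0.25 (SE 0.11, adjusted p = 0.137). HERPUD1 was the 1 gene with a positive value, 168 and 185 RPKM in normoxia against 193 and 191 in hypoxia (log2 fold change 0.12, SE 0.10, adjusted p = 0.382). Without overlap, 7 of the 10 genes were lower and HERPUD1 was higher, where 26.1% of all genes were lower and 42.0% higher.

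**Figure D2:**
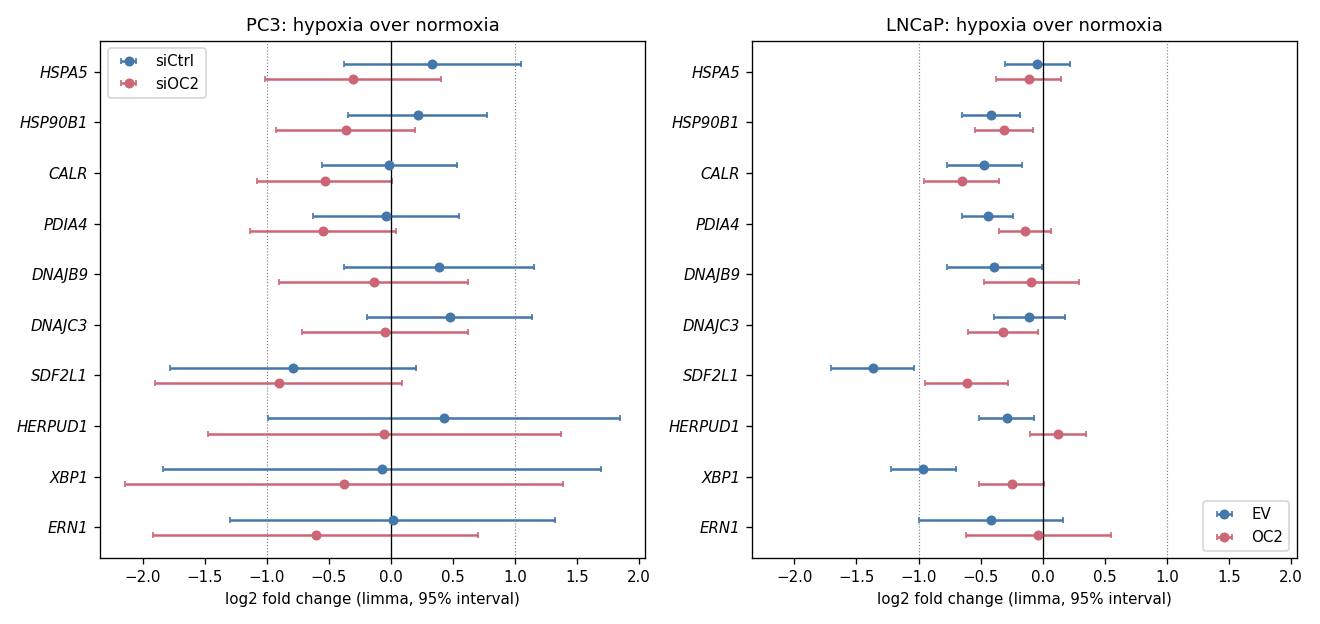
Log2 fold change of hypoxia over normoxia with its 95% interval from limma for each of the 10 genes, in PC3 (left, siCtrl blue and siOC2 red) and LNCaP (right, EV blue and OC2 red), with dotted lines at the fold limit of 2. The interval of SDF2L1 in EV lies wholly under the fold limit, and in PC3 each interval holds 0.

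In LNCaP normoxia none of the 10 genes was called by limma in OC2 over EV (3.29% of all genes), and the 1 gene with an unadjusted P under 0.05 (24.2% of all genes) was XBP1, with a log2 fold change of -0.57 (SE 0.11, adjusted p = 0.0309, a limit passed by 5.25% of all genes). Its OC2 libraries, at 54.6 and 60.9 RPKM, lay under the EV libraries at 82.1 and 89.3. PDIA4, SDF2L1 and HERPUD1 were also lower without overlap in OC2, with log2 fold changes of -0.15, -0.31 and -0.22 and adjusted p of 0.335, 0.239 and 0.217. Lower values without overlap were found for 31.5% of all genes. Upper-quartile scaling turned the median of the 10 genes from -0.07 to 0.01, and gave 5 genes above 0 in place of 3.

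In hypoxia the OC2 libraries lay above the EV libraries without overlap in 6 of the 10 genes (PDIA4, DNAJB9, SDF2L1, HERPUD1, XBP1 and ERN1), where 31.6% of all genes did. None was called by limma (4.47% of all genes), and 2 had an unadjusted P under 0.05 (28.2% of all genes). SDF2L1 was at 5.85 and 5.38 RPKM in OC2 against 4.16 and 3.99 in EV (log2 fold change 0.45, SE 0.15, adjusted p = 0.0827). DNAJC3, the inhibitor of PERK known as p58IPK, was lower, at 11.3 and 12.4 against 13.5 and 15.6 RPKM (log2 fold change -0.30, SE 0.12, adjusted p = 0.161), and 34.8% of all genes were lower without overlap. ERN1 had the largest value, 0.51, but a wide SE of 0.25 (adjusted p = 0.236).

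The interaction term compared the response to hypoxia in OC2 with that in EV, and rests on the same 8 libraries as the contrasts above. None of the 10 genes was called (3.70% of all genes), and 4 had an unadjusted P under 0.05, as had 16.9% of all genes. SDF2L1 had an interaction of 0.76 (SE 0.21, adjusted p = 0.145) and XBP1 of 0.71 (SE 0.16, adjusted p = 0.107). For HERPUD1 it was 0.41 (SE 0.14, adjusted p = 0.205) and for PDIA4 0.30 (SE 0.13, adjusted p = 0.286). In each of these 4 genes the EV mean lay above the OC2 mean in normoxia and under it in hypoxia. After adjustment none of the 4 differences passed 0.05. The chaperones HSPA5, HSP90B1 and CALR had interactions of -0.07, 0.10 and -0.18, each with an interval that holds 0.

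**Figure D3:**
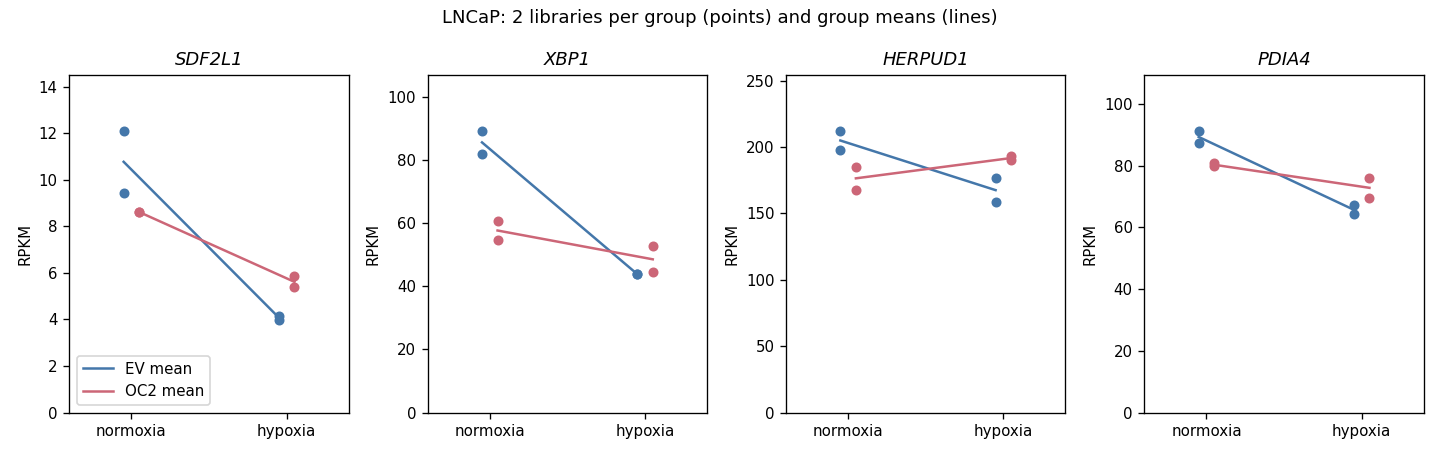
RPKM of SDF2L1, XBP1, HERPUD1 and PDIA4 in LNCaP in normoxia and hypoxia, with points for the 2 libraries per group and lines between group means, EV in blue and OC2 in red. The lines cross in each panel, with SDF2L1 going from 10.8 to 4.08 RPKM in EV and from 8.61 to 5.61 in OC2.

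In PC3 siCtrl cells none of the 10 genes was called in hypoxia by limma, where 3.86% of the 12214 genes tested were, and none had an unadjusted P under 0.05 (7.38% of all genes). HSPA5 was at 24.2 and 28.6 RPKM in normoxia and at 34.9 and 31.5 in hypoxia (log2 fold change 0.33, SE 0.31, adjusted p = 0.895). DNAJB9, a J-domain partner of BiP, was at 19.0 and 22.3 RPKM in normoxia and at 30.3 and 23.99 in hypoxia (log2 fold change 0.39, SE 0.33, adjusted p = 0.878). Both hypoxic libraries were higher in these genes, as they were in DNAJC3 and HERPUD1, with log2 fold changes of 0.47 and 0.43. These are 4 of the 10 genes, beside 22.1% of all genes that were higher without overlap.

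SDF2L1 was the 1 gene that was lower without overlap (32.9% of all genes), at 4.58 and 3.72 RPKM in normoxia and at 1.93 and 2.85 in hypoxia. Its log2 fold change was -0.79 (SE 0.43, adjusted p = 0.773) and its 95% interval ran from -1.78 to 0.20. The abundant chaperones CALR and HSP90B1 overlapped between the oxygen levels, with log2 fold changes of -0.01 and 0.22. XBP1 was at 21.8 and 25.6 RPKM in normoxia and at 22.7 and 22.3 in hypoxia. The hypoxic values of XBP1 lay inside the range of the normoxic ones. Its SE in this contrast was still 0.77. The fit took 1 spread per gene over all 4 groups, so the spread between the siRNAs enters the siCtrl SEs too.

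In siOC2 cells all 10 genes had a negative log2 fold change in hypoxia, and none was called (3.46% of all genes) or had an unadjusted P under 0.05 (6.71% of all genes). The median was -0.37, beside -0.22 for all genes tested, and after upper-quartile scaling it was -0.24 beside -0.09, with 2 of the 10 genes above 0. HSP90B1, CALR, PDIA4 and SDF2L1 were lower without overlap, where 20.9% of all genes were. PDIA4 was at 76.0 and 54.4 RPKM in siOC2 normoxia and at 42.4 and 45.7 in siOC2 hypoxia (log2 fold change -0.55, SE 0.26, adjusted p = 0.719). SDF2L1 was at 5.48 and 3.13 RPKM and then at 1.62 and 2.89 (log2 fold change -0.90, SE 0.43, adjusted p = 0.719). SDF2L1 was called without siOC2 normoxia replicate 2, at -1.30, and without siOC2 hypoxia replicate 2, also at -1.30. The second of these also called ERN1, at -1.44. The contrast counts the spread between the siRNAs as error, although each siRNA was sampled at both oxygen levels. Within both siRNAs 8 of the 10 genes were lower in hypoxia, the exceptions being DNAJC3 and HERPUD1, and so were 40.4% of all genes. XBP1, for example, went from 48.6 to 37.8 RPKM with siRNA1 and from 11.3 to 8.59 with siRNA2. With a term for the siRNA, chosen after the data were seen, none of the 10 was called by limma, and the lowest adjusted p was 0.209, for SDF2L1.

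Silencing of ONECUT2 was compared as siCtrl over siOC2, so that a negative value means a higher level after silencing. In normoxia HERPUD1 was higher after silencing, with 53.4 and 71.8 RPKM in siCtrl against 324 (siRNA1) and 92.4 (siRNA2) in siOC2. The siRNA1 library stood far above the others, and the siRNA2 library was still above both siCtrl libraries. The log2 fold change was -1.48 (SE 0.62, adjusted p = 0.523), and HERPUD1 was the 1 gene of the 10 that was called, where 5.21% of all genes were called and 3.62% in this direction. The call of HERPUD1 depended on single libraries. It was lost without siCtrl normoxia replicate 1 (-1.27) or 2 (-1.70), without siCtrl hypoxia replicate 1 or 2 (-1.48 in both), and without siOC2 normoxia replicate 1 (-0.58). It was also lost without the 3 libraries of lowest depth, 1 of which is siCtrl normoxia replicate 1, and with upper-quartile scaling (-1.38) or with no filter on low values (-1.48).

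PDIA4, DNAJB9 and DNAJC3 were higher after silencing in normoxia at an unadjusted P under 0.05 and by less than 2-fold. PDIA4 was at 31.4 and 33.4 RPKM in siCtrl and at 76.0 and 54.4 in siOC2 (log2 fold change -0.99, SE 0.26, adjusted p = 0.273). DNAJB9 was at 19.0 and 22.3 RPKM in siCtrl and at 50.1 and 31.3 in siOC2 (log2 fold change -0.94, SE 0.33, adjusted p = 0.43). DNAJC3 was at 7.28 and 9.39 RPKM in siCtrl and at 16.7 and 13.1 in siOC2 (log2 fold change -0.83, SE 0.29, adjusted p = 0.425). In these 3 genes both siRNAs lay above both siCtrl libraries, and siRNA1 lay above siRNA2. With HERPUD1 they make 4 of the 10 genes, beside 6.66% of all genes with such a P in this direction. Which of the 10 genes were called changed when single libraries were left out. Such refits leave 1 library in a group, and the share of all genes called in them is not given here.

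HSPA5, HSP90B1 and ERN1 were also higher without overlap after silencing, which makes 7 of the 10 genes, where 31.4% of all genes were. HSPA5 was at 46.8 and 29.3 RPKM in siOC2 normoxia, against 24.2 and 28.6 in siCtrl (log2 fold change -0.49, SE 0.31, adjusted p = 0.689). ERN1 was at 3.79 and 7.52 RPKM in siOC2 against 2.49 and 1.84 in siCtrl (log2 fold change -1.28, SE 0.57, adjusted p = 0.555), and was called without siOC2 normoxia replicate 1, at -1.77. CALR and SDF2L1 overlapped. The median of the 10 genes was -0.66, beside -0.13 for all genes, and after upper-quartile scaling -0.56 beside -0.03.

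In hypoxia none of the 10 genes was called in siCtrl over siOC2 by limma (7.50% of all genes), none had an unadjusted P under 0.05 (12.1% of all genes), and 5 values lay on each side of 0. HERPUD1 was at 87.1 and 79.5 RPKM in siCtrl against 279 (siRNA1) and 100.2 (siRNA2) in siOC2, again without overlap (log2 fold change -1.005, SE 0.62, adjusted p = 0.568). Leaving out siOC2 hypoxia replicate 2 made it a call, at -1.74, and leaving out siOC2 hypoxia replicate 1 made ERN1 a call, at -1.498. PDIA4, at 32.0 and 31.1 RPKM in siCtrl and 42.4 and 45.7 in siOC2, and DNAJC3, at 12.6 and 10.5 against 12.9 and 15.8, were the other genes higher without overlap after silencing, where 18.8% of all genes were. CALR was lower without overlap after silencing, as were 19.6% of all genes. The interaction was positive in all 10 genes, with a median of 0.52 beside 0.17 for all genes, but none had an unadjusted P under 0.05 (1.03% of all genes) or was called (0.942%), and their largest value, 0.64 in HSPA5, had an SE of 0.44. After upper-quartile scaling 9 of the 10 were positive, with medians of 0.36 and 0.01, and ERN1 was called without siOC2 hypoxia replicate 2, at 1.45.

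The spread inside the siOC2 groups followed the siRNA, so each siRNA was also compared with siCtrl in a fit with an oxygen term, which was chosen after the data were seen. It takes the 2 oxygen levels of an siRNA as its replicates, so that at one oxygen level siRNA and library cannot be told apart, and its contrasts share libraries. HERPUD1, XBP1 and ERN1 differed between the siRNAs. HERPUD1 was higher with siRNA1 than in siCtrl (siCtrl over siRNA1 -2.07, SE 0.20, adjusted p = 0.000117), where 13.1% of all genes were called. With siRNA2 its value was -0.42 (SE 0.20, adjusted p = 0.151). The difference between the siRNAs was 1.64 (SE 0.23, adjusted p = 0.000797), and 19.3% of all genes were called in that contrast.

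XBP1 moved in opposite directions. It was at 48.6 and 37.8 RPKM with siRNA1 and at 11.3 and 8.59 with siRNA2, in normoxia and hypoxia, while the 4 siCtrl libraries lay between 21.8 and 25.6. It was called lower with siRNA2 (siCtrl over siRNA2 1.22, SE 0.18, adjusted p = 0.00115), a contrast in which 13.7% of all genes were called. With siRNA1 it was higher at an adjusted p under 0.05 and under 2-fold (siCtrl over siRNA1 -0.89, SE 0.18, adjusted p = 0.00645). siRNA1 over siRNA2 gave 2.11 (SE 0.21, adjusted p = 0.000155), the largest difference between the siRNAs among the 10 genes, and the mean of both siRNAs hid it in the contrast with siCtrl in normoxia, which was 0.01.

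ERN1 went the other way. With siRNA2 it was at 7.52 and 6.29 RPKM, above the siCtrl range of 1.84 to 2.49 (siCtrl over siRNA2 -1.63, SE 0.28, adjusted p = 0.0023). With siRNA1 it was at 3.79 RPKM in normoxia and at 1.91 in hypoxia, and siCtrl over siRNA1 was -0.31 (SE 0.28, adjusted p = 0.46). siRNA1 over siRNA2 was -1.32 (SE 0.32, adjusted p = 0.0141), and without siOC2 hypoxia replicate 1, which has the lowest depth, it was -0.88 and no longer called, nor was it without the 3 libraries of lowest depth (-0.83).

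PDIA4 was higher with both siRNAs at an adjusted p under 0.05, which 21.1% of all genes passed for siRNA1 and 21.3% for siRNA2. siCtrl over siRNA1 was -0.83 (SE 0.20, adjusted p = 0.0149) and siCtrl over siRNA2 was -0.64 (SE 0.20, adjusted p = 0.0437), and the siRNAs differed by 0.19 (SE 0.23, adjusted p = 0.589). Under the alternatives the adjusted p of PDIA4 ran from 0.00107 to 0.0811 for siRNA1 and from 0.00442 to 0.303 for siRNA2. It passed above 0.05 for siRNA1 without siOC2 normoxia replicate 1, and for siRNA2 with no filter on low values, without any 1 of the 4 siCtrl libraries and without either siRNA2 library. DNAJB9 was higher with siRNA1 (-0.99, SE 0.21, adjusted p = 0.00665) and had -0.37 with siRNA2 (adjusted p = 0.225). Without siOC2 hypoxia replicate 1 both PDIA4 (-1.195) and DNAJB9 (-1.20) were called for siRNA1, as they were without the 3 libraries of lowest depth (-1.14 and -1.03), and without siCtrl hypoxia replicate 1 DNAJB9 was (-1.11). DNAJC3 gave -0.59 and -0.55 for the siRNAs (adjusted p = 0.0975 and 0.112), which differed by 0.03 (SE 0.27). HSPA5, HSP90B1, CALR and SDF2L1 had no adjusted p under 0.05 with either siRNA, and their values lay between -0.45 and 0.11. At an unadjusted P under 0.05 were 5 of the 10 genes for siRNA1, 4 for siRNA2 and 5 for siRNA1 over siRNA2, beside 35.1%, 35.7% and 37.6% of all genes. In siRNA1 over siRNA2, 3 of the 10 had an adjusted p under 0.05, as had 23.9% of all genes. Upper-quartile scaling gave 6 of the 10, adding HSPA5, CALR and DNAJB9, but the share of all genes after scaling is not given here. With it the median of the 10 genes went from 0.226 to 0.376 and that of all genes from -0.264 to -0.118.

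**Figure D4:**
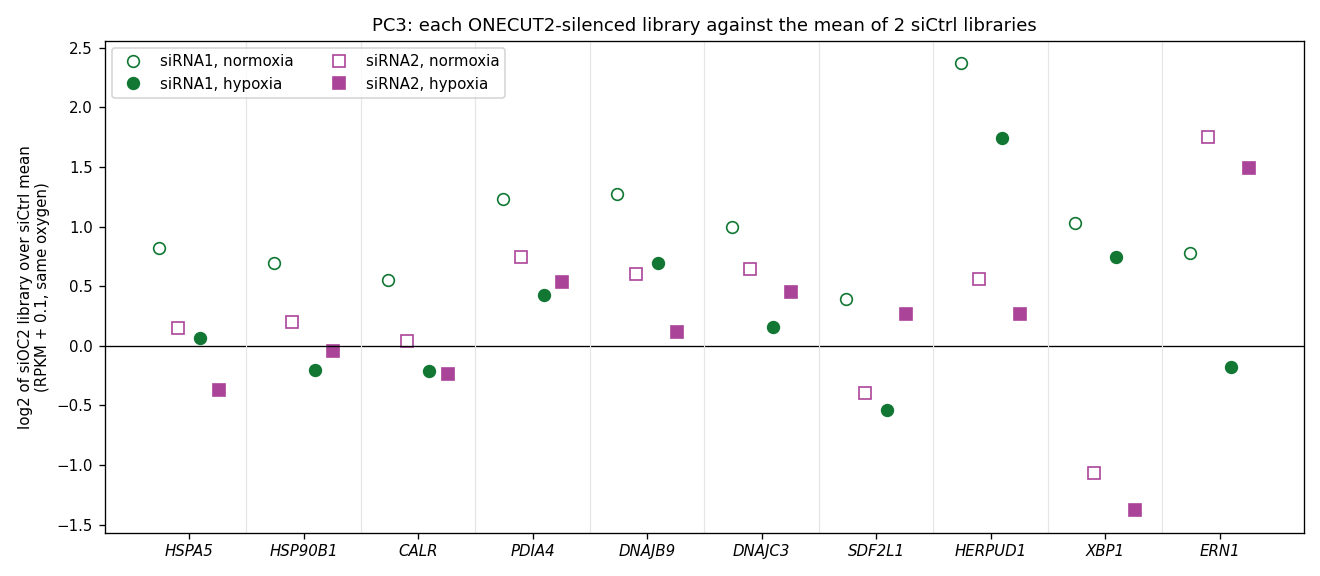
Log2 of each siOC2 library over the mean of the 2 siCtrl libraries of the same oxygen level for the 10 genes in PC3, with circles for siRNA1, squares for siRNA2 and filled symbols for hypoxia. XBP1 lies above 0 in both siRNA1 libraries and below 0 in both siRNA2 libraries, HERPUD1 is highest with siRNA1, and ERN1 is highest with siRNA2.

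The other genes of ER proteostasis were taken from lists chosen along with the 10 genes. Of 14 other ER chaperones and cofactors, such as HYOU1, CANX and DNAJB11, none was called by limma in the 5 contrasts of either line, of which 13 were tested in PC3 and 14 in LNCaP. In LNCaP EV hypoxia their median was -0.30, with 5 at an adjusted p under 0.05, beside -0.42 and 5 of 10 for the genes described here. Of all genes, 32.3% passed that limit. In siCtrl over siOC2 in normoxia their median was -0.01, beside -0.66. Of 13 genes of ER disulfide oxidation, 2 were called higher in PC3 siCtrl hypoxia, where 3.86% of all genes were called in either direction. They were QSOX1, a sulfhydryl oxidase (1.21, SE 0.42, adjusted p = 0.536), and P4HB, the main protein disulfide isomerase and a subunit of prolyl 4-hydroxylase (1.01, SE 0.26, adjusted p = 0.2745). None of the 13 was called in LNCaP.

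In siCtrl over siOC2 in normoxia 2 of 19 tested ERAD genes were called higher after silencing, like HERPUD1, beside 3.62% of all genes. They were DERL1 (-1.21, SE 0.33, adjusted p = 0.289) and SEL1L (-1.002, SE 0.29, adjusted p = 0.327), which are parts of the channel for misfolded proteins. In LNCaP the selenoprotein gene VIMP was the 1 ERAD gene of 20 called lower in EV hypoxia (-1.29, adjusted p = 0.0331) and the 1 called higher in OC2 over EV in hypoxia (1.37, adjusted p = 0.0541). Of all genes, 2.34% were called lower in EV hypoxia and 4.47% were called in either direction in OC2 over EV in hypoxia. Among 16 translocon and signal peptidase genes, SEC61G, a subunit of the protein channel, was called higher in hypoxia in PC3 siCtrl (1.77, SE 0.24, adjusted p = 0.0321) and siOC2 (1.13, SE 0.24, adjusted p = 0.457). In these contrasts 3.86% and 3.46% of all genes were called in either direction. SRPR, a receptor of the signal recognition particle, was higher after silencing in normoxia (-1.06, adjusted p = 0.482). Of 11 tested sensors and processing factors, RTCB, the ligase that joins the XBP1 exons, and MBTPS1, the protease that cuts ATF6, were called higher after silencing in normoxia (-1.08 and -1.01, adjusted p = 0.412 and 0.283), beside 3.62% of all genes.

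The PERK output list holds ATF4 and genes it is known to raise. Of its 8 tested genes, 6 were called higher after silencing in normoxia, beside 3.62% of all genes, with adjusted p from 0.103 to 0.4245. Whether PERK itself took part in these values was not tested. CHAC1 (-2.96, SE 0.48, adjusted p = 0.126), SESN2 (-2.43), TRIB3 (-2.07) and ASNS (-1.55) had the largest values. In hypoxia 3 of the 8 were called, beside 3.55% of all genes: CHAC1 (-3.33), SESN2 (-1.88) and ASNS (-1.875). ATF4 itself, named here after its values were seen, overlapped between siCtrl and siOC2 at both oxygen levels (-0.47 and -0.34, adjusted p = 0.898 and 0.881). It was at 138.1 RPKM with siRNA1 and 46.4 with siRNA2 in normoxia, against a siCtrl mean of 57.9, and at 158.4 and 48.6 in hypoxia, against 69.8. siRNA1 over siRNA2 gave 1.64 for ATF4 (SE 0.21, adjusted p = 0.000435). The median of the 8 genes in normoxia was -1.51, beside -0.66 for the 10 genes described here. In the PC3 interaction TRIB3 was called (1.07, SE 0.44, adjusted p = 0.9998), beside 0.942% of all genes. In LNCaP EV hypoxia CHAC1 (-1.497, adjusted p = 0.00633) and ASNS (-1.25, adjusted p = 0.00243) were called lower, beside 2.34% of all genes. In OC2 over EV in normoxia PPP1R15A was called higher (1.595, adjusted p = 0.00158) and TRIB3 lower (-1.09, adjusted p = 0.0442), where 3.29% of all genes were called. In the LNCaP interaction 4 genes of this list were called (CHAC1 1.55, TRIB3 1.34, DDIT3 1.30 and ASNS 1.27), beside 3.70% of all genes, with adjusted p from 0.0725 to 0.137. PPP1R15A had the opposite sign there (-0.61, adjusted p = 0.241).

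A list of 12 chaperones and cofactors outside the ER held cytosolic ones and the mitochondrial HSPD1 and HSPE1. None of the 12 was called by limma in the 5 contrasts of PC3 or in LNCaP EV hypoxia. In EV hypoxia, however, 7 of the 12, HSPD1 and HSPE1 among them, were lower at an adjusted p under 0.05. At that limit, which 32.3% of all genes passed, 1 of the 12 was higher. Their median was -0.475, beside -0.42 for the 10 genes described here. In LNCaP the inducible HSP70 genes HSPA1A (1.16, adjusted p = 0.00961) and HSPA1B (1.08, adjusted p = 0.00284), near-identical copies that can share reads, were called higher in OC2 over EV in normoxia, where 3.29% of all genes were called. HSPA1A was called lower in OC2 hypoxia (-1.18, adjusted p = 0.00252) and in the interaction (-1.006, SE 0.24, adjusted p = 0.119), beside 6.84% and 3.70% of all genes called. HSPA8 is listed at 0 in both OC2 hypoxia libraries, so no fold is given for it.

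Correlations between the genes across libraries are given as a description. Over the 8 PC3 libraries 39 of 45 pairs of the 10 genes had a Pearson correlation above 0 (-0.659 to 0.96, median 0.537), beside 61.6% of all pairs of genes tested (median 0.169). Over the 8 LNCaP libraries 45 of 45 had (0.0579 to 0.973, median 0.493), beside 51.4% of all pairs (median 0.0235). Libraries of a line share groups, depth and scaling, so these values carry no test. The genes outside the 10 whose log2 RPKM was most like that of HSPA5 in both lines, ranked by the smaller of the PC3 and LNCaP correlations among 10948 genes, were YWHAB (0.861), HSPB11 (0.777), FUBP1 (0.758), HIF1AN (0.711) and NUB1 (0.706). The closest of the 10 genes was HSP90B1, with 0.814 in PC3 and 0.519 in LNCaP, at rank 80, followed by CALR with 0.723 and 0.491. SDF2L1 was at rank 1940, and ERN1 was the least like HSPA5, at rank 3288, with -0.126 in PC3 and 0.493 in LNCaP.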

How the data were processed

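Polyadenylated RNA of 16 libraries was sequenced. The authors trimmed reads, aligned them to hg19 with STAR 2.4.2a and derived the deposited RPKM with Cufflinks 2.1.1. No counts were used, and depth is known only as an estimate relative to one library per line. ChIP-Seq, the other assay of the series (12 samples), was left out.

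Values were taken as log2(RPKM + 0.1), which understates changes of low genes. A gene was tested where 2 or more libraries of the line reached 1 RPKM, and all 10 genes passed. In each line, limma 3.58.1 (R 4.3.3, empirical Bayes with trend, two-sided) was fitted to the 4 groups, with Benjamini-Hochberg adjustment over all genes tested. An exact test of 2 against 2 libraries cannot go below p = 0.33. The fits and depth estimates were tested on simulated data. In simulated PC3 hypoxia in siCtrl, 60 of 66 genes changed 4-fold were called, but 0 had an adjusted p under 0.05. There 315 unchanged genes were called as well, beside 471 genes called in the measured data. In simulated LNCaP EV hypoxia 66 of 66 were called, 64 had such an adjusted p, and 44 unchanged genes were called. Estimated depth was off by at most 0.0431%. Both lines were tested separately. The 10 genes and all lists were chosen with earlier results of these data known. All 10 are described. From other lists, up to 4 called genes per contrast with the largest change could be named. ERO1A, ERO1B and PECAM1 were not analysed here. Alternatives covered the pseudocount, filters, scaling, groups fitted, replicate block, call rule, exact zeros and each library left out. An siRNA fit, an siRNA term, a crossed block and a fit without 3 shallow libraries were chosen after seeing the data.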

Additional observations from a re-analysis of the deposited data

Results flagged for a closer look

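The effects of siRNA1 and siRNA2 differed by a test of the difference itself in 3 of the 10 genes, where 19.3% of all genes were called. siRNA1 over siRNA2 gave a log2 fold change of 1.642 for HERPUD1, 2.111 for XBP1 and -1.32 for ERN1. HERPUD1 (1.37 to 1.91) and XBP1 (2.00 to 2.26) were called under all 14 alternatives tried, and ERN1 (-1.76 to -0.83) under 12 of 14. Upper-quartile scaling called 3 genes too, but gave an adjusted p under 0.05 in 6 of the 10 in place of 3, and under at least 1 alternative DNAJB9 (0.0086), HSPA5 (0.0133), CALR (0.0152), HSP90B1 (0.0202) and PDIA4 (0.0487) passed that limit. The share of all genes with an adjusted p under 0.05 under these alternatives is not given here. The part of the siRNA sequence in the differences between the siRNAs was not tested.

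In 4 cases both libraries of a condition lay on one side in PC3 and on the other in LNCaP, and these differences between the lines were not tested. They are 2 of the 10 genes in each of 2 pairs of contrasts, where 11.9% and 13.4% of all genes tested in both lines lay so. In the other 2 pairs it was 0 of the 10 genes. There 7.21% of all genes (hypoxia over normoxia in siOC2 and OC2) and 12% (higher over lower ONECUT2 in normoxia) lay so. In hypoxia over normoxia DNAJB9 had 0.3877 in PC3 siCtrl and -0.3883 in LNCaP EV, and HERPUD1 had 0.4273 and -0.2915. In hypoxia the contrast of higher over lower ONECUT2 gave -0.4792 for PDIA4 in PC3 (siCtrl over siOC2) and 0.1477 in LNCaP (OC2 over EV). In the same contrasts HERPUD1 had -1.005 and 0.1963.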

How the results depend on the processing

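No called value changed sign under any alternative. Of 2302 values compared, called or not, 91 changed sign, all of them uncalled and none larger than 0.66 on the log2 scale in the fit as reported. Under alternatives other than leaving out 1 library, 102 counts of the 10 genes called stayed within 1.5 times the reported count and 25 did not, and the cause was not tested. In siCtrl over siOC2 in normoxia, 1 gene was called as reported, 0 with no filter, with upper-quartile scaling, by an adjusted p under 0.05 or without the 3 libraries of lowest depth, 2 with only the groups compared or with an siRNA term, and 4 by P alone. In siCtrl over siOC2 in hypoxia the siRNA term called 1 in place of 0. siCtrl over siRNA1 called 1 as reported, 2 with upper-quartile scaling, 3 without the 3 libraries of lowest depth, 4 by adjusted p and 5 by P alone (35.1% of all genes). P alone called 4 in siCtrl over siRNA2 (35.7%) and 5 in siRNA1 over siRNA2 (37.6%), in place of 2 and 3. In LNCaP, adjusted p alone called 5 genes in EV hypoxia, 2 in OC2 hypoxia and 1 in OC2 over EV in normoxia, and P alone called 7, 4 and 1, with 2 in OC2 over EV in hypoxia and 4 in the interaction.

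Leaving out each library in turn gave 0 to 4 calls in siCtrl over siOC2 in normoxia, 0 to 1 in hypoxia, 0 to 2 for hypoxia in siOC2, 0 to 1 for the PC3 interaction, 1 to 3 for siCtrl over siRNA1, 2 to 3 for siRNA1 over siRNA2 and 1 to 2 for LNCaP EV hypoxia. In the fits of 4 groups this left 1 library in a group, and no share of all genes called is set beside these counts. Replicate numbers pair the siOC2 libraries by siRNA, and deviations of same-numbered siOC2 libraries correlated at 0.618 between oxygen levels. The other groups share only a number, with correlations from -0.186 to 0.275. Neither the replicate block nor the siRNA term changed the count of 0 for hypoxia in siOC2. The block called 2 genes (HERPUD1 and ERN1) in place of 1 in siCtrl over siOC2 in normoxia. A block with the siCtrl normoxia numbers crossed called 2 there and 1 in hypoxia. With 2 libraries per group, SEs in PC3 reached 0.77 for single contrasts, and changes smaller than these intervals were not detectable.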
